A study of Homo sapiens with 24 samples.

Results

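Circular RNAs whose back-splice ends lie more than 30000 bases apart on the genome are described here in HCC827 cells, a human lung adenocarcinoma line driven by mutant EGFR. The rule took every row of the deposited circRNA table whose end minus start plus 1 exceeded 30000, which gave 446 of 2997 circRNAs. Their genomic span ran from 30046 to 199703 bases, with a median of 45530 and quartiles at 35708 and 66118.5. The span was above 50000 bases in 187 and above 100000 bases in 41. No read count entered the rule.

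The circRNA libraries came from wild-type HCC827 cells kept for 10 days in Osi, which the series' design text spells out as osimertinib, an inhibitor of the EGFR kinase (n = 3 libraries), or for 10 days in DMSO, the solvent control (n = 3). The gene counts of the hosts were read in a second set of wild-type HCC827 libraries, drug-tolerant persister (DTP) cells with the empty vector EV (n = 3) and Parental cells with the same vector (n = 3). The other libraries of the series carry a cATF6 overexpression or the acquired resistant state; no value of theirs is reported, but they enter the host gene fit, where they share in the estimate of the spread and in the scaling. The labels do not say that libraries of one group came from separate cultures, so the spread between them may be technical. All of these are bulk libraries of 1 cell line, in which fewer cells and less RNA per cell cannot be told apart. In the EV libraries the scaled count of EGFR lay between 192610 and 203910, that of the epithelial keratin KRT8 between 48045 and 66571, and that of the leukocyte gene PTPRC between 0 and 11. The keratin KRT18 had 38293, 33867 and 28815 in DTP EV, against 50817, 51272 and 52302 in Parental EV libraries. VIM, the vimentin gene, had 14276, 7385 and 8429 in DTP EV, against 580, 555 and 527 in Parental EV libraries.

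A circular RNA forms when the spliceosome joins the end of a downstream exon to the start of an upstream exon of the same transcript, a reaction called back-splicing. The introns between the 2 ends are normally removed from the circle, so a long genomic span does not by itself make a long molecule. Reads across the back-splice junction are the only reads that tell a circle from the linear transcript of its host, and circRNAs, which have no free ends, resist exonucleases. Long introns next to the circularised exons, and inverted repeats within them, are known to favour back-splicing.

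The exon layout of a member was taken from GENCODE release 29, by matching its span exactly to a pair of an exon start and an exon end within a transcript of its listed host. The host was found in that annotation for 427 members, 423 of them at protein-coding genes, and 324 members matched a single exon pair. The deposited coordinates are given on hg19, the build named in the submitters' processing notes, while the annotation is on GRCh38, so spans and not positions were matched. For all 24 hosts with 2 or more matched members, the distance between both sets of coordinates was the same for every matched member of that host. The junctions of 9 members are shown, because these carried the most reads or were among those with the widest separation between Osi and DMSO libraries and had coding exons on both sides. The last 20 bases of the last exon are in lower case and the first 20 bases of the first exon, to which they are joined in the circle, are in capitals, read from the GENCODE transcripts.

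hsa_circISPD_003, exon 3 to exon 2: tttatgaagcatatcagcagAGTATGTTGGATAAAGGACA

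hsa_circFGD6_014, exon 14 to exon 4: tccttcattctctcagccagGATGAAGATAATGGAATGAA

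hsa_circDCBLD2_008, exon 3 to exon 2: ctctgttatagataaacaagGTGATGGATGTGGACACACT

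hsa_circISPD_012, exon 9 to exon 6: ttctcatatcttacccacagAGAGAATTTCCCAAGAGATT

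hsa_circPPHLN1_002, exon 9 to exon 3: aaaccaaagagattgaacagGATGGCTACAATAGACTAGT

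hsa_circNME7_008, exon 10 to exon 7: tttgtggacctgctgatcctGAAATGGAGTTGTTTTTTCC

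hsa_circPKN2_025, exon 8 to exon 2: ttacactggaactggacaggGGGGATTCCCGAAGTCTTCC

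hsa_circDPYD_019, exon 11 to exon 6: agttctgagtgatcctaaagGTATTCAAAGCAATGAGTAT

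hsa_circNAV3_043, exon 8 to exon 2: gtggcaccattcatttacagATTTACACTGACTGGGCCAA

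Most of a member's span was intron. The 324 matched members held a median of 6 exons, with quartiles of 4 and 8 and a range of 2 to 26, against a median of 4 exons in circRNAs spanning 5 to 30 kb and 2 in those under 5 kb. The exons summed to a median of 749.5 bases in members, against 576.5 and 400.5 bases in the shorter classes. The exons covered a median of 1.53% of a member's span. The longest intron inside a member had a median of 24007 bases, and in 110 members this intron alone exceeded 30000 bases. The extreme was hsa_circGLIS3_004, from a zinc-finger transcription factor gene: 1 of its introns measured 160096 of its 168756 bases, and its 3 exons summed to 1808 bases.

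The introns outside the circle were long as well. The intron before the first exon had a median of 19320 bases in members, against 9476 and 5279 bases in the shorter classes, and the intron after the last exon had a median of 16649 bases, against 7673 and 4349. Of the matched members 132 (40.7%) began at exon 2 of the matched transcript, against 35.5% and 26.97% in the shorter classes. No matched member began at the first exon or ran to the last exon of its transcript. The exons of 254 matched members lay wholly in coding sequence, 56 held the start codon and 3 held the stop codon. These layouts assume that every annotated exon between the ends is kept. The spliced length listed in the circRNA table equalled the summed exons in 10 of the 324 and exceeded the genomic span in 37 of all 446, so listed lengths are not used here.

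**Figure D1:**
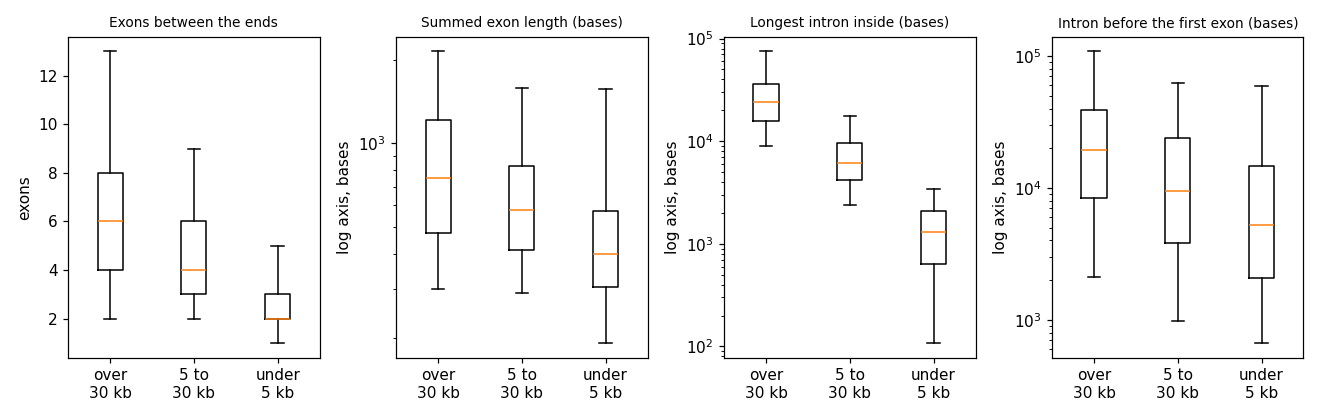
Exon layout of circRNAs matched to 1 exon pair, by genomic span: exons between the ends, summed exon length, longest intron inside the span (rows with a single exon have none and are left out of that panel) and the intron before the first exon, the last 3 on log axes in bases. Lines are medians, boxes quartiles and whiskers the 5th to 95th percentiles; members (over 30 kb) have a median of 6 exons, 749.5 exonic bases and a longest intron of 24007 bases.

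The members came from 405 host genes. A single member was listed for 372 hosts, 2 members for 26 and 3 members for 7, and 1 member had no listed host. Of the hosts 120 also gave circRNAs of 30 kb or less. The most-read long circRNA had more mean reads than the most-read shorter one at 54 of these and fewer at 58. Members shared a start or an end with another row of the table in 52 cases, and 49 had another row nested within them. By chromosome, members made up between 6.14% of circRNAs on chromosome 16 and 26.2% on the X chromosome.

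Of the lists of host genes by function, receptor signalling, kinases and phosphatases held 33 of the member hosts (8.15%, against 4.30% of the hosts of all circRNAs). Among them were GSK3B, a kinase of Wnt and insulin signalling, and EGFR itself. RNA processing and decay held 22 (5.43%, against 2.96%), with the RNA-binding proteins QKI and PUM2 among them. Chromatin and transcription held 21 (5.19%, against 3.79%), membrane traffic 18 (4.44%, against 3.08%), DNA repair, replication and cell cycle 11 (2.72%, against 2.72%) and ubiquitin and protein turnover 9 (2.22%, against 2.33%). Calcium handling and endoplasmic reticulum, a list of 68 genes, held none of the member hosts, against 30 of all hosts (1.18%). The lists are partial, and all of them together held 138 of the 405 member hosts (34.1%). The kinase genes PKN2 and DAPK1, for example, are member hosts outside the kinase list. A function may thus occur among hosts that its list does not hold. These shares are descriptions without a test.

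Back-splice reads were recovered from the deposited values as 10 to the power of the value minus 1. Each library held few: 7333, 7300 and 7130 back-splice reads over all circRNAs in the Osi libraries, against 4944, 5996 and 5870 in the DMSO libraries. Members drew 1222, 1207 and 1213 of them in Osi libraries, a mean of 1214 ± 7.47 (SD, n = 3), against 759.7, 784.9 and 862.5 in DMSO libraries, a mean of 802.3 ± 53.6 (SD, n = 3). Every Osi library was above every DMSO library. The ratio of the mean totals was 1.51 for members, against 1.29 for circRNAs of 5 to 30 kb and 1.22 for those under 5 kb. As a share of the library, members held 16.7%, 16.5% and 17.0% in Osi, against 15.4%, 13.1% and 14.7% in DMSO (means 16.7 ± 0.247% and 14.4 ± 1.17%, SD, n = 3 each). The Osi minus DMSO difference in the share was 2.36 percentage points. A two-sided exact permutation test gave p = 0.1 for the share and p = 0.1 for the summed reads, the smallest p that 3 libraries against 3 allow.

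Of the 38 members that reached 10 reads in a library, 15 had a listed 0 beside 10 or more reads within 1 group. Over all circRNAs this held for 165 of 368. With 50 reads or more in place of 10 it held for 2 members, which the share included. hsa_circISPD_003 was listed at 0 in DMSO library 2 beside 118 and 79 reads in the other DMSO libraries, and hsa_circCADM1_002 had 104 reads in Osi library 2 and 0 in the other 5 libraries. Without these 2, members held 14.8 ± 0.715% of reads in Osi libraries and 13.3 ± 0.219% in DMSO libraries (SD, n = 3 each), a difference of 1.47 percentage points (exact permutation p = 0.1). Over the 187 members spanning more than 50000 bases the difference was 0.662 percentage points, with 5.36%, 4.78% and 5.6% in Osi libraries against 4.86%, 4.44% and 4.45% in DMSO libraries (exact permutation p = 0.2), and the groups overlapped. Over rows with whole reads alone, which include hsa_circISPD_003 and hsa_circCADM1_002, it was 4.25 percentage points. The summed reads differed by 412 as recovered and by 273 after TMM scaling.

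More members were detected after Osi. Reads above 0 were listed for 237, 242 and 246 members in the Osi libraries, against 180, 206 and 193 in the DMSO libraries (242 ± 4.51 and 193 ± 13, SD, n = 3 each). A two-sided exact permutation test gave p = 0.1 for the number detected. Since the Osi libraries held more reads, each library was also thinned to the smallest total. The expected number of members detected was then 215, 218 and 225 in Osi, against 180, 195 and 181 in DMSO, a difference of 33.7 in place of 48.7. The shorter classes were also detected more often in Osi libraries after thinning, with 627 ± 35.2 in Osi against 555 ± 24.8 in DMSO for circRNAs of 5 to 30 kb and 465 ± 19.2 in Osi against 384 ± 30.3 in DMSO for those under 5 kb (SD, n = 3 each).

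**Figure D2:**
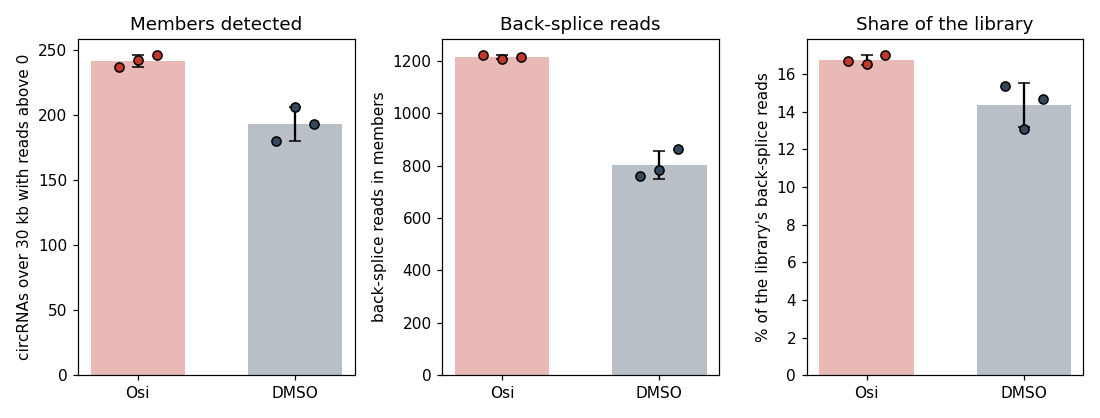
Members detected, back-splice reads in members and the members' share of the library's back-splice reads in Osi and DMSO libraries. Points are libraries, bars group means and error bars SD (n = 3 each); every Osi library lies above every DMSO library in each panel.

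Few members were seen everywhere. Of the 446, 140 had reads in 1 library, 90 in 2, 63 in 3, 47 in 4, 29 in 5 and 77 in all 6. Members were in all 6 libraries in 17.3% of cases, against 10.85% of circRNAs of 5 to 30 kb and 9.08% of those under 5 kb. Among rows with whole reads alone this order was reversed, as given below. Reads were in Osi libraries alone for 129 of the 446 members and in DMSO libraries alone for 72, with 245 in both groups. Over all 2997 circRNAs these counts were 935, 620 and 1442. All 3 Osi libraries and no DMSO library held 14 of the 446 members, and the reverse was true of 2. Over all 2997 circRNAs this held for 57 and the reverse for 18. Mean reads per library were under 1 for 175 members, and 9 members averaged 10 or more.

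The recovered reads were of 2 kinds. In 233 members they were whole numbers in every library, while in 213 (47.8%) some were fractions that became whole when the row was multiplied by a number between 2 and 15. Such rows were 35.6% of circRNAs of 5 to 30 kb and 24.8% of those under 5 kb. Of the 77 members present in all 6 libraries, 76 had fractional reads, and of the 140 present in 1 library 138 had whole reads. Among rows with whole reads 0.429% of members were in all 6 libraries, against 2.94% of circRNAs of 5 to 30 kb and 3.08% of those under 5 kb. Among rows with fractional reads the shares were 35.7%, 25.15% and 27.2%. In members with whole reads a value of 1 stood 25 times, against 83 times for 2 and 78 times for 3, so a listed 0 may include junctions with fewer reads than a minimum. How the fractions and this minimum arose is not given in the sources used here, and their part in the differences between groups was not tested.

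**Figure D3:**
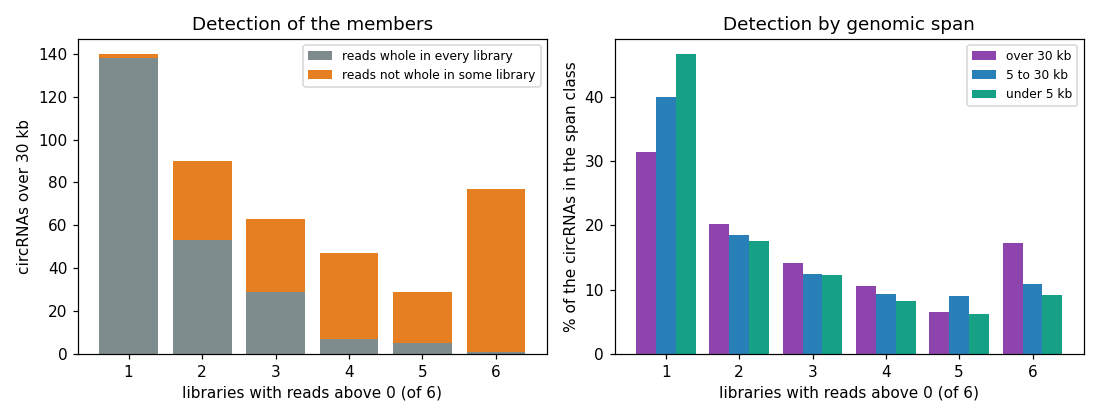
Left: members by the number of libraries with reads above 0, split by whether the recovered reads are whole in every library; right: the same distribution as a percentage of each span class. Members in 1 library number 140 and those in all 6 number 77, of which 76 have fractional reads.

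The most-read member by mean was hsa_circISPD_003 (chr7:16415717-16445962), from ISPD, an enzyme that makes the ribitol donor for dystroglycan glycosylation. It joins exons 2 and 3 over 30246 bases, of which 427 are exon. It had 141, 114 and 142 reads in Osi libraries, against 118, 0 and 79 in DMSO libraries. The 0 apart, the groups lay close to each other, and its log2 change of 2.48 had a standard error of 1.64 and an adjusted p of 0.588 in limma.

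hsa_circFGD6_014 (chr12:95498783-95546769), from a guanine nucleotide exchange factor for Cdc42, spans exons 4 to 14. It had 51, 40 and 54 reads in Osi libraries, against 67.5, 69.5 and 100 in DMSO libraries. Every Osi library was below every DMSO library, with a log2 change of -0.88 ± 0.26 (SE), an unadjusted p of 0.0109 and an adjusted p of 0.155 in limma. hsa_circDCBLD2_008, from a neuropilin-like membrane receptor gene, had 30, 17 and 31 reads in Osi libraries, against 25, 32 and 21 in DMSO libraries, and the groups overlapped. At DCBLD2 the long circle held more reads than the 1 shorter circRNA listed, which averaged 2.44 in Osi and 3.56 in DMSO libraries. The 12 most-read members together held 28.9% of all member reads.

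Among the other most-read members, hsa_circGLIS3_004 had 9, 14.2 and 20 reads in Osi libraries, against 11, 12.5 and 5.75 in DMSO libraries. hsa_circRAPGEF5_003, from an exchange factor for Rap GTPases, had 10.5, 14 and 13.3 in Osi, against 8.25, 18.8 and 14.5 in DMSO. In both the groups overlapped. hsa_circWWC3_006, from a WW-domain gene of Hippo signalling, had 26, 14 and 8 in Osi, against 0, 8 and 4 in DMSO, with 1 library of each group at the same value. In 3 further members every Osi library was above every DMSO library: hsa_circASAP1_040 (13.3, 13.7 and 12 in Osi against 5, 6.33 and 11 in DMSO), from an Arf GTPase-activating protein, hsa_circFAM126A_007 (17, 11.3 and 9 in Osi against 4.33, 6 and 8.33 in DMSO), from a subunit of the phosphatidylinositol 4-kinase complex, and hsa_circSPAG16_008 (16, 9.25 and 10.8 in Osi against 5, 8.75 and 5.5 in DMSO), from a sperm axoneme protein. These are reads before scaling, and after TMM scaling the groups overlapped in all 3. The log2 changes of these 3 members were between 0.61 and 0.71 with adjusted p from 0.486 to 0.546 in limma. hsa_circPSD3_020, from an exchange factor for Arf6, had 18, 10 and 14.5 reads in Osi against 8, 16.5 and 2.5 in DMSO, which overlapped. hsa_circTUBG1_015, listed at the gamma-tubulin gene, had 16, 16 and 0 reads in Osi against 0, 0 and 25 in DMSO.

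**Figure D4:**
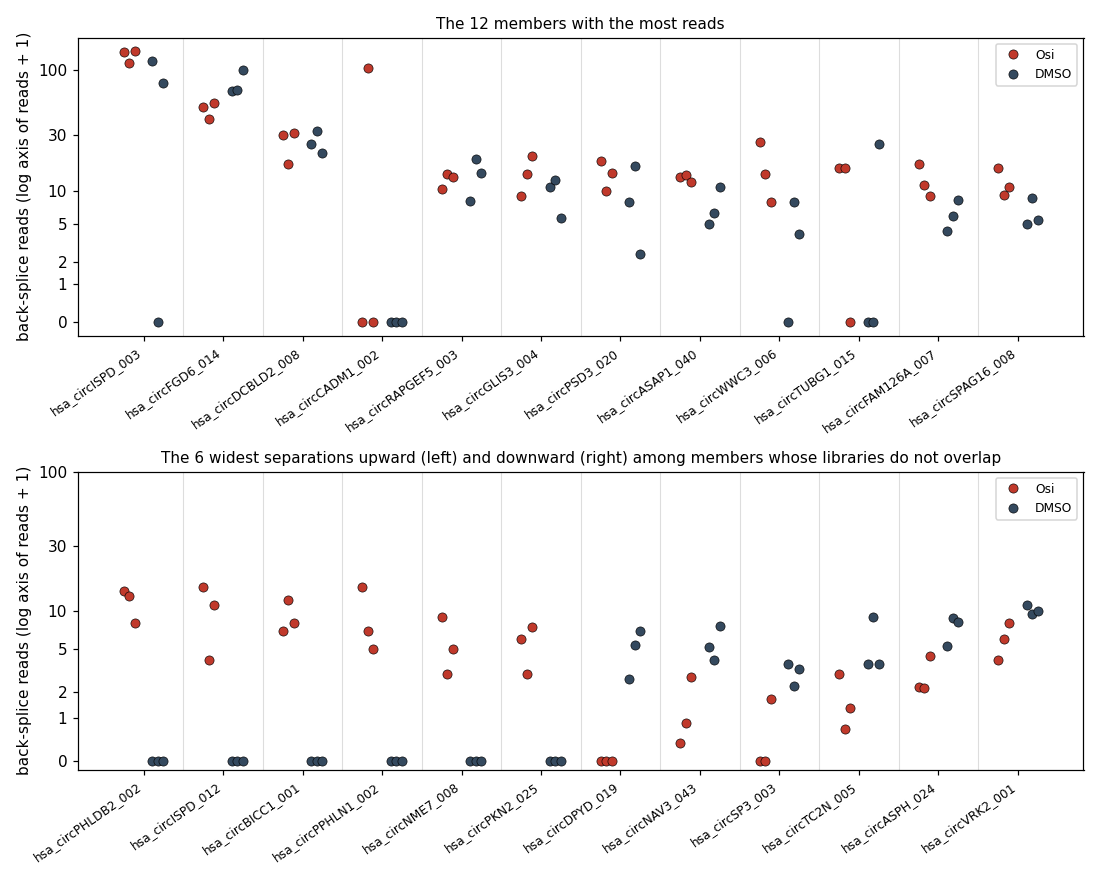
Back-splice reads of the 12 most-read members (top) and of the 6 widest separations upward and 6 downward among tested members with non-overlapping groups (bottom), 1 point per library, Osi left and DMSO right, on a log axis of reads + 1. The 6 upward ones are at 0 in every DMSO library and hsa_circDPYD_019 is at 0 in every Osi library.

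Osi was tested over DMSO with limma on log2 of TMM-scaled reads plus 1, for every circRNA that reached 2 reads in 3 or more libraries. It covered 871 circRNAs, of which 139 were members, and 307 members had too few reads to enter. No member and no circRNA passed an adjusted p of 0.05 (0 of 871, 0.0%), and the smallest adjusted p among members was 0.0617. At an unadjusted p under 0.05 there were 18 higher and 7 lower members of 139, against 9.76% higher and 4.13% lower among all 871. Fitted log2 changes of the tested members ran from -2.59 to 3.54 with a median of 0.38, against 0.23 over all circRNAs tested. With the 11 members that had 1 group at 0 set at their lower bounds the median is also 0.38, a value fixed by the bounds, each of which lies on the same side of it as the fitted change. The bounds take a listed 0 as at most 3 reads over the group. The median fitted change was 0.95 over the 36 tested members with whole reads and 0.04 over the 103 with fractional reads. With other settings members passed: 5 of 446 when no filter was applied (1.12%, against 0.634% of all circRNAs). With a pseudocount of 0.1 there were 11 of 139 (7.91%, against 5.97% of all), and without the trended prior 9 of 139 (6.47%, against 3.56% of all). Leaving out DMSO library 3 gave a median of 0.18 and leaving out DMSO library 2 gave 0.22.

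Over all 446 members, 34 had every Osi library above every DMSO library and 10 had every Osi library below, against 5.54% and 1.63% of all 2997 circRNAs. Of the tested members 27 had every Osi library above every DMSO library and 8 had every Osi library below, against 14.8% and 4.48% of all circRNAs tested. After TMM scaling of the reads there were 23 above and 10 below, against 12.5% and 7.35%. A member with 0 reads in 1 group passed the filter only through the other group, so its separation was fixed by the filter, and 10 tested members had DMSO at 0 and 1 had Osi at 0.

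The 6 widest separations upward all had DMSO at 0. hsa_circPHLDB2_002 (chr3:111602911-111651244), from a protein that anchors microtubules at the cell cortex, had 14, 13 and 8 reads in Osi libraries, against 0, 0 and 0 in DMSO libraries. With a listed 0 taken as at most 3 reads over the DMSO group, it was at least 9.01-fold higher in Osi, relative to total back-splice reads. Its adjusted p was 0.0617 in limma. This and the fold values below hold only under that reading of a 0, which was not tested. A listed 0 also stood beside 118 and 79 reads in DMSO libraries at hsa_circISPD_003. The circle of hsa_circPHLDB2_002 spans exons 2 to 6, holds the start codon and sums to 2144 bases of exon. In the authors' deposited table it had an adjusted p of 0.0351, the 1 member among 4 circRNAs under 0.05 there (0.133% of 2997). The test behind the authors' p is not given in the sources used here.

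hsa_circISPD_012 (chr7:16255691-16317851), the second member at ISPD, had 15, 4 and 11 reads in Osi libraries and 0 in each DMSO library. It was at least 7.72-fold higher in Osi (adjusted p = 0.0738 in limma). It lies downstream of hsa_circISPD_003 in the same transcript, over exons 6 to 9, and shares no end with it. hsa_circBICC1_001, at the gene of an RNA-binding protein with KH domains, had 7, 12 and 8 reads in Osi and 0 in each DMSO library. hsa_circPPHLN1_002, from periphilin, a subunit of the HUSH silencing complex, had 15, 7 and 5 in Osi and 0 in each DMSO library. Both were at least 6.95-fold higher in Osi, with adjusted p of 0.0723 and 0.0738 in limma.

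Lower counts separated the next ones. hsa_circNME7_008, from a gamma-tubulin ring complex component, had 9, 3 and 5 reads in Osi libraries, and hsa_circPKN2_025, from a protein kinase gene, had 6, 3 and 7.5, both against 0 in each DMSO library. They were at least 4.38-fold and 4.25-fold higher in Osi, each with an adjusted p of 0.0854 in limma. hsa_circPKN2_025 shares its start with a shorter circRNA of 19389 bases that averaged 1.33 reads in Osi and 0.5 in DMSO libraries.

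The widest separation downward was hsa_circDPYD_019 (chr1:98039316-98165103), from the enzyme that starts pyrimidine breakdown. It had 0 reads in each Osi library, against 2.67, 5.33 and 7 in DMSO libraries, and was at least 6.47-fold lower in Osi (adjusted p = 0.0854 in limma). hsa_circNAV3_043, from a neuron navigator protein at microtubule ends, had 0.333, 0.833 and 2.83 reads in Osi, against 5.17, 4 and 7.67 in DMSO. hsa_circSP3_003, from a transcription factor of the Sp family, had 0, 0 and 1.67 in Osi, against 3.67, 2.33 and 3.33 in DMSO. Neither passed, with adjusted p of 0.243 and 0.281 in limma.

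Others with every Osi library below every DMSO library were hsa_circTC2N_005, hsa_circASPH_024 and hsa_circVRK2_001. hsa_circTC2N_005 had 3, 0.667 and 1.33 reads in Osi, against 3.67, 9 and 3.67 in DMSO. hsa_circASPH_024, from aspartate beta-hydroxylase, had 2.27, 2.2 and 4.33 reads in Osi, against 5.27, 8.73 and 8.13 in DMSO (log2 change -1.27 ± 0.46 SE, adjusted p = 0.257 in limma). hsa_circVRK2_001, from a serine/threonine kinase gene, had 4, 6 and 8 in Osi, against 11, 9.5 and 10 in DMSO. Its log2 change of -0.89 was close to that of hsa_circFGD6_014, at a much lower number of reads.

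The 5 longest members were sparsely read. hsa_circDAPK1_004, spanning 199703 bases at a death-associated kinase gene, had 5 reads in Osi library 1 alone. hsa_circCUX1_009, spanning 199159 bases at a homeodomain factor gene, had 6 in Osi library 3 alone. hsa_circINPP4B_007 (188744 bases, 16 exons) had 1, 1.33 and 0.667 reads in Osi libraries and none in DMSO libraries, and hsa_circGSK3B_005 (187839 bases) had none in Osi libraries and 0, 8 and 2 in DMSO libraries. hsa_circGTDC1_004 (178821 bases) was the only one of the 5 in all 6 libraries, with 3.5, 1 and 2 in Osi against 1.5, 3.5 and 1 in DMSO.

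The values on both sides of the threshold are given as a description. Just inside lay hsa_circASPH_024 (30046 bases), hsa_circANKRD13C_028 (30053 bases; 6.86, 5.29 and 5.86 reads in Osi against 1, 3.43 and 1.29 in DMSO) and hsa_circPCDH7_004 (30063 bases; 1 library of each group above 0). Just outside lay hsa_circABCA13_002 (29998 bases; 4 reads in 1 Osi library), hsa_circARHGAP29_003 (29924 bases; 0, 7 and 6 in Osi against 0, 0 and 1 in DMSO) and hsa_circNBEA_011 (29920 bases; 0, 1.33 and 0 in Osi against 2, 1.33 and 1.67 in DMSO).

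Of the 7 hosts with 3 members each, EVI5, GSK3B and DNAH14 had the most reads summed over their members. At EVI5, a Rab GTPase-activating protein gene, hsa_circEVI5_015 and hsa_circEVI5_033 share their downstream end at exon 17, and hsa_circEVI5_002 and hsa_circEVI5_033 share their start at exon 12. hsa_circEVI5_033 had 0 reads in each Osi library, against 6, 6 and 0 in DMSO, while hsa_circEVI5_015 had 0, 0 and 7.33 in Osi, against 3.67, 2.33 and 0.667 in DMSO. At GSK3B, hsa_circGSK3B_002 and hsa_circGSK3B_033 both start at exon 7. hsa_circGSK3B_002 had 0, 2 and 0 reads in Osi, against 2, 6 and 8 in DMSO, whereas hsa_circGSK3B_033 had 6 in Osi library 1 alone. At DNAH14, hsa_circDNAH14_025 was in all 6 libraries with 5.11, 2 and 2.67 reads in Osi against 3.22, 2.89 and 4.56 in DMSO, and a circle of 16205 bases from the same start averaged 12.2 in Osi and 15.7 in DMSO libraries.

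EGFR, the target of osimertinib, had 1 circRNA in the table and it was a member. hsa_circEGFR_011 spans 133825 bases (chr7:55096760-55230584) and had 2.5, 2 and 1.25 reads in Osi libraries, against 0.75, 0 and 2.5 in DMSO libraries. The groups overlapped (log2 change 0.55 ± 0.65 SE, adjusted p = 0.74 in limma). The change was 0.07 without DMSO library 2 and 1.53 with a pseudocount of 0.1, neither past the threshold. No exon pair of EGFR in the annotation matched its span. ATF6 and MET had 2 circRNAs each, none above 24029 bases, and AXL had none in the table.

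The gene counts of the hosts were compared between DTP EV and Parental EV libraries, a separate set of cells and libraries. Such counts may hold reads of circles beside those of linear transcripts, and these were not told apart. limma on log2 of TMM-scaled counts plus 1 covered 15211 genes, of which 4351 (28.6%) were higher and 4298 (28.3%) lower in DTP EV at an adjusted p of 0.05. Of the 405 member hosts 367 were tested, and 112 were higher (30.5%) and 139 lower (37.9%). A fit of the 6 EV libraries alone gave 103 higher and 139 lower. Hosts of all circRNAs gave 27.9% and 38.9%, so member hosts lay near them. Without scaling, 59 member hosts were higher and 133 lower, against 15.3% and 28.1% of all genes. The median log2 change of all genes was 0.00 with scaling and -0.15 without it.

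Hosts of members that separated by treatment were read in the same way, with the members grouped by reads before scaling. After TMM scaling of the reads 23 members were above and 10 below, and no host counts are given for those sets. For the 27 tested members with every Osi library above every DMSO library, 24 hosts were tested, and 16 rose (66.7%), 3 fell and 5 did not pass in DTP EV. For the 8 members with every Osi library below, 8 of 8 host genes fell in DTP EV. hsa_circGSK3B_002, chosen after its values were seen, had a log2 change of -2.08. It was not among the 8 because a library of each group stood at 2 reads. Its host GSK3B rose in DTP EV, with a log2 change of 0.53 (adjusted p = 3.7e-07 in limma). For members whose groups overlapped, 26 of 93 hosts rose (28%) and 37 fell (39.8%). Over all circRNAs tested, 47% of the hosts of those above rose and 73.7% of the hosts of those below fell. Without scaling of the host gene counts, and with the same sets of members, 12 of 24 hosts were higher and 2 lower for those above. For those below 8 of 8 were lower. These counts are given without a test of their difference. Of the 27 members above, 10 had DMSO at 0 and passed the filter only through Osi, and 1 of the 8 below had Osi at 0. The filter fixed the separation of these members, and no host counts are given without them.

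The values of single hosts show the range. PHLDB2 averaged 7612 ± 652 scaled counts in DTP EV and 2930 ± 20.6 in Parental EV libraries (SD, n = 3 each), a log2 change of 1.37 (adjusted p = 4.72e-11 in limma). BICC1 averaged 8315 ± 1110 in DTP EV and 1970 ± 41.1 in Parental EV libraries, a log2 change of 2.07 (adjusted p = 0.00022 in limma). ISPD had a log2 change of 2.55 (adjusted p = 6.9e-08 in limma), with 300.6, 622.8 and 565.6 scaled counts in DTP EV, against 79.74, 71.67 and 89.26 in Parental EV libraries. The hosts of 3 others with DMSO at 0 had smaller log2 changes, 0.15 for PPHLN1 and 0.33 for NME7, both past the threshold, and 0.10 for PKN2, which did not pass; the value of PPHLN1 is no larger than the shift of all genes between the scalings.

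Among hosts of members lower in Osi libraries, ASPH averaged 29020 ± 2990 scaled counts in DTP EV and 106100 ± 2790 in Parental EV libraries (log2 change -1.87). DPYD had a log2 change of -1.13 and FGD6 one of -0.97, while VRK2 had one of -0.25, all 4 past the threshold. Host genes also changed where the circle did not separate: CADM1, whose circle had reads in 1 Osi library alone, had a log2 change of 2.68 in DTP EV, and RAPGEF5, whose circle overlapped between groups, had one of -1.28. MAP2K4, KLHL8 and ATXN2, chosen after their values were seen, were the 3 hosts that fell although a circle of theirs separated upward. In that circle every Osi library was above every DMSO library. The log2 changes of these hosts were -0.21, -0.49 and -0.33. At MAP2K4 this circle was hsa_circMAP2K4_019, while in hsa_circMAP2K4_014 the groups overlapped, with a log2 change of -0.2.

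**Figure D5:**
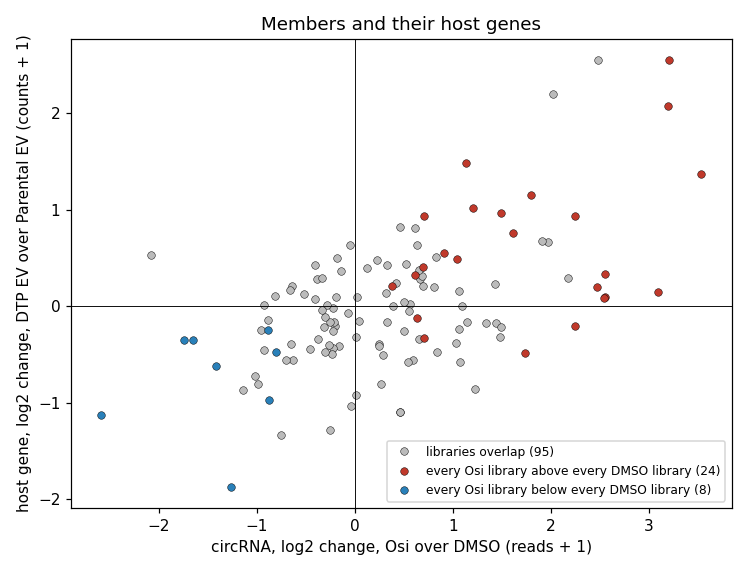
Log2 change of each tested member (Osi over DMSO, reads + 1) against that of its host gene (DTP EV over Parental EV, counts + 1) for the 127 members with a tested host. Colours mark members whose libraries do not overlap in reads before scaling, 24 above and 8 below. All 8 below have a host log2 change under 0.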

How the data were processed

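Per the labels' protocols, total RNA was depleted of ribosomal RNA and made into stranded libraries. The circRNA table was deposited by the authors as log10 values, with each circRNA's position and host and the authors' own log10 fold changes, p-values and adjusted p-values. Gene tables were deposited by the authors as log10 values, which gave whole counts as 10 to the power of the value minus 1. The submitters' processing notes name FastQC, MultiQC, STAR, featureCounts and hg19, and the circRNA caller is not given in the sources used here. Reads were recovered as 10 to the power of the value minus 1 and called whole within 1e-06. Of the members' values above 0, 51.4% were whole. Because the deposited unit is log10 and many values are not whole, no count model was used. Tests used limma 3.58.1 in R 4.3.3 with a trended prior on log2(TMM-scaled reads + 1), Benjamini-Hochberg adjusted over all features tested, and exact two-sided permutation tests over libraries for sums, shares and detection. A log2 change on this scale understates the change of low rows. Gene fits covered genes that reached 10 counts in 3 or more libraries, with all EV and cATF6 libraries in 1 fit. The 6 EV libraries used held between 30075330 and 40152649 counts, and 15 repeated symbols were left out. 6 value columns of another gene sheet were not used because their names match no sample of the series. Counting error alone limits a circRNA value: 3 reads over a group is the floor used for a group at 0, and reads without molecular identifiers are not independent molecules. The fits were checked on simulated whole counts, which hold no fractional reads, so the check does not cover rows with such reads. Exon layouts came from GENCODE release 29 by exact span, and host names were matched also through older symbols.

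Members named in the text were the 12 with the most mean reads, the 6 widest differences in each direction among tested members whose groups do not overlap, the 5 longest, the 3 nearest the threshold on each side, the members of the 3 hosts with the most members (7 hosts tied at 3 members, and summed reads decided) and those at ATF6, EGFR, MET and AXL. The result of 1 list of host genes is not reported here. The members, lists and tests were chosen with earlier results of these data known. Alternatives were other scalings, filters, pseudocounts, priors and span limits, a replicate block and leaving out each library. Same-numbered libraries were not treated as pairs.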

Additional observations from a re-analysis of the deposited data

How the results depend on the processing

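The count of members at an adjusted p of 0.05 was 0 in the limma fit with TMM scaling, and 0 also without scaling, with scaling by totals, with a mean of at least 5 reads, with either span limit and in each fit that left out 1 library (range 0 to 0, for all circRNAs too). It was 5 (19 of all circRNAs, 0.634%) with no filter, 11 (52, 5.97%) with a pseudocount of 0.1, and 9 (31, 3.56%) without a trended prior. hsa_circISPD_003 is among the 5: without the filter its adjusted p was 3.39e-10, with an SD of 0.409 used in the test in place of the 2.75 between its libraries. The median log2 change of members was 0.61 with a pseudocount of 0.1 and 0.95 over rows with whole reads alone, an alternative chosen after seeing the data, and lay between 0.18 and 0.40 when 1 library was left out. The cause of these shifts was not tested. With a replicate block, 0 members and 0 circRNAs passed, the median stayed at 0.38, and the mean same-numbered differences were 2.36 percentage points, 412 reads and 48.7 members (exact p = 0.25, the smallest 3 pairs allow). Deviations of same-numbered libraries correlated at 0.0429, -0.067 and -0.0195, so the numbers are not read as pairs.

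The share, the summed reads and the number detected had a higher mean in Osi under each alternative run. The share differed by 1.71 to 2.85 percentage points when 1 library was left out, by 3.42 for spans above 20000 bases, by 0.662 above 50000 bases, where the groups overlapped, and by 4.25 over whole rows. The summed reads differed by 651, 124 and 273 under these last 3, and by 273 after TMM scaling. The number detected differed by 79.3, 16.7 and 26 under them, and by 33.7 after thinning. Host genes called numbered 251, and every alternative stayed within 1.5 times of this. Of the changes of single named members, 3 turned sign: hsa_circDCBLD2_008 was 0.02 without Osi library 2 (range -0.41 to 0.02 with 1 library left out), hsa_circGLIS3_004 was -0.02 without DMSO library 3 (range -0.02 to 0.63), and hsa_circGTDC1_004 was 0.09 without scaling and 0.22 and 0.26 without Osi or DMSO library 2 (range -0.33 to 0.26). Depth limits all of this, since 175 members average under 1 read a library.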
